A study of Mus musculus with 36 samples.

Results

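The replication-dependent histone genes are the clustered genes of mouse that encode the bulk of H1, H2A, H2B, H3 and H4, and their RNA was followed across CD4 T cell states of mice labelled C57BL/6J (wild type, WT) and C57BL/6J-Ets1-SE-KO (KO). Members were all protein-coding genes of the GENCODE M21 annotation (mouse build GRCm38) whose symbols start with Hist1h, Hist2h, Hist3h or Hist4h. Of 67 such genes, 65 had a row among the 45706 genes tabulated, and Hist1h2bh and Hist1h2bm are not analysed here. The 65 members were 6 genes of H1, 18 of H2A, 16 of H2B, 12 of H3 and 13 of H4. In all, 52 lay in the Hist1 cluster on chromosome 13, 10 in the Hist2 cluster on chromosome 3, 2 in the Hist3 cluster on chromosome 11, and the gene Hist4h4 was on chromosome 6.

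RNA of 36 libraries was sequenced from spleen CD4 T cells, and 28 of them fell into 10 groups by their labels; the title and the transduction label of the other 8 name different viruses. Naive CD4 T cells, which were collected by negative selection with beads and not cultured, gave 2 WT and 2 KO libraries. The cultured cells of the earlier set, Th1 and Th2 helper cells, gave 3 libraries for each of WT Th1, KO Th1, WT Th2 and KO Th2. Th1 cells were grown for 6 days on plates coated with antibody against CD3, with interleukin 12, interleukin 2 and soluble antibody against CD28. How Th2 cells were cultured is not stated in these sources. A later set held Th1 cells alone: 2 untransduced WT, 2 untransduced KO, 4 WT libraries with the retrovirus labelled EV-RV and 4 KO libraries with the retrovirus labelled Ets1-RV. All KO groups carry the same Ets1-SE-KO allele, whose coordinates the labels do not state. The targeted gene Ets1 was at 1810 ± 4.76 CPM (a gene's counts scaled to a library total of 10 to the power of 6 gene counts) in WT naive and 707.8 ± 2.24 in KO naive cells (SD, n = 2 each). Titles number the libraries by B and by T, and no label explains these numbers. All naive and earlier Th1 and Th2 libraries share B number 1 and differ by T number alone; they were counted as replicates, and would be n = 1 per group if B marked the independent unit. Since no label ties them to separate mice or cultures, every p-value below rests on a between-library spread that may be technical.

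Histone proteins package newly copied DNA, and the cell makes most of them while DNA is being replicated. The RNAs of the clustered genes are the classic exception to polyadenylation: they end in a short stem-loop that the stem-loop binding protein SLBP recognises, and they are degraded when replication stops. Transcription of the clusters depends on NPAT, which is switched on by cyclin E with CDK2. A few members are known to give polyadenylated RNA as well and to be used by cells that no longer divide. The libraries were made from total RNA, so RNA without a poly(A) tail could enter them.

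The stem-loop is the feature that sets these RNAs apart, and its letters (GG, any pair of bases, CTT, any base, T, any base, AG, any pair of bases and CC), searched after the stop codon on the coding strand, are shown in capitals for 5 members on which the results below turn, with 5 flanking bases on each side.

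Hist1h1c: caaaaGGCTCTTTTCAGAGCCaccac
Hist1h3c: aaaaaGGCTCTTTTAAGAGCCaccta
Hist1h4a: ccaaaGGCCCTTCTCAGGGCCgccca
Hist1h4d: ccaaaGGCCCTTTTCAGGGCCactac
Hist3h2a: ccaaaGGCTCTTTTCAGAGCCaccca

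A match was found in the annotated transcripts of 44 of 65 members, 21 to 58 bases after the stop codon. The most frequent form, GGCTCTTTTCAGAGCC, was that of 24 members. The 5′ side of the stem followed the histone type: it began GGCTC in all 32 matched genes of H1, H2A, H2B and H3, and GGCCC or GGTCC in all 12 matched genes of H4. Of the 21 members without a match, 15 have gene models that end within 2 bases of the stop codon, so the letters could not be looked for there. Hist1h2bc and Hist2h2be have models with 742 and 2192 bases after the stop codon and no match. Hist1h2bq and Hist1h2br, with up to 1608 and 1803 such bases, have no match either. Bases outside the annotated transcripts were not searched. Hist3h2a has the match but also 1643 annotated bases beyond it, and Hist1h1c has 840, whereas Hist1h2ab has 11.

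Promoter letters were also read for 59 members found in the RefSeq table of GRCm38.p6 (windows of 300 bases, most of them before the start). The octamer ATTTGCAT, searched on both strands, was in 12 of the 59 windows (20.3%) against 1.8% of 27025 windows, 1 per gene; 7 were H2A and 5 H2B genes. AAACACA was in 5 of 6 windows of H1 genes against 7.1% of all windows. CCAAT was in every matched window of H1, H2A, H2B and H3 and in 3 of 12 of H4, against 37.9% of all. TATAAA was in 59.3% of member windows against 14.2% of all. Below are the 130 bases before the start of 3 H1 genes that behaved differently and of 1 H2B gene, with these 4 motifs in capitals.

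Hist1h1a: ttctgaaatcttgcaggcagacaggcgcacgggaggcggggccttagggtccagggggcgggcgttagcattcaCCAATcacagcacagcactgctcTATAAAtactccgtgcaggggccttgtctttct
Hist1h1b: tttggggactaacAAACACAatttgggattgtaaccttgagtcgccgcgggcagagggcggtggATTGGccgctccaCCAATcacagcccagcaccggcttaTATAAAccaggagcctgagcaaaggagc
Hist1h1c: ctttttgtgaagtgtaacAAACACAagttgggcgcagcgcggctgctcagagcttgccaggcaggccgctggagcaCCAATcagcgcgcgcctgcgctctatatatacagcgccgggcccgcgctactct
Hist1h2bb: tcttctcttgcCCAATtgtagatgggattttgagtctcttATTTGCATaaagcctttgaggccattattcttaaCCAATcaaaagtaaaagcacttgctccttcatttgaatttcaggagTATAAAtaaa

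These stretches lie at chr13:23763538-23763667 (plus strand, Hist1h1a), chr13:21780626-21780755 (minus strand, Hist1h1b), chr13:23738677-23738806 (plus strand, Hist1h1c) and chr13:23746604-23746733 (plus strand, Hist1h2bb) of GRCm38.p6. Hist1h1b and Hist1h1c hold AAACACA at 117 and 112 bases before the start, and the Hist1h1a window does not hold it. The Hist1h1c window holds no TATAAA in these letters. A match of letters is a description and says nothing of binding.

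Coding sequences of one histone type are nearly alike, which limits what can be said of single members. The median member had 44.5% of its 38-base windows in no other gene, from 97.85% for H1 to 26.3% for H2A. Only 29 of 65 members had at least 50% of such windows, and 11 had less than 10%. Hist1h2ao, Hist1h2ap, Hist1h2bq, Hist1h2br, Hist2h2aa1 and Hist2h3c1 had 0 to 10 counts over the 28 grouped libraries, and their windows were 0.0% to 10.8% unique. Values of single H2A, H2B, H3 and H4 genes are therefore uncertain, but not equally. The share of unique 38-base windows was 98.8% for Hist2h2be and 86.6% for Hist1h4d, but 12.2% for Hist1h2bn. Hist3h2a shares a stretch with the neighbouring gene Trim17, and Hist1h1e one with Hist1h2be, so these are uncertain as well.

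Summed over the 65 members, histone RNA in WT cells of the earlier set was 6.68 times as high in Th1 and 6.38 times as high in Th2 cells as in naive cells. The summed level was 891.1 and 930.9 CPM in the WT naive libraries, and 1159 and 1023 CPM in the KO naive libraries. WT Th1 libraries held 6424, 6048 and 5790 CPM and KO Th1 libraries 5707, 6029 and 5739 CPM. WT Th2 libraries held 5878, 6328 and 5219 CPM and KO Th2 libraries 6466, 6256 and 5956 CPM. WT and KO overlapped in Th1 and in Th2 cells, and both KO naive libraries lay above both WT ones. The later Th1 set was lower, at 2052 to 4324 CPM over its 12 grouped libraries.

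**Figure D1:**
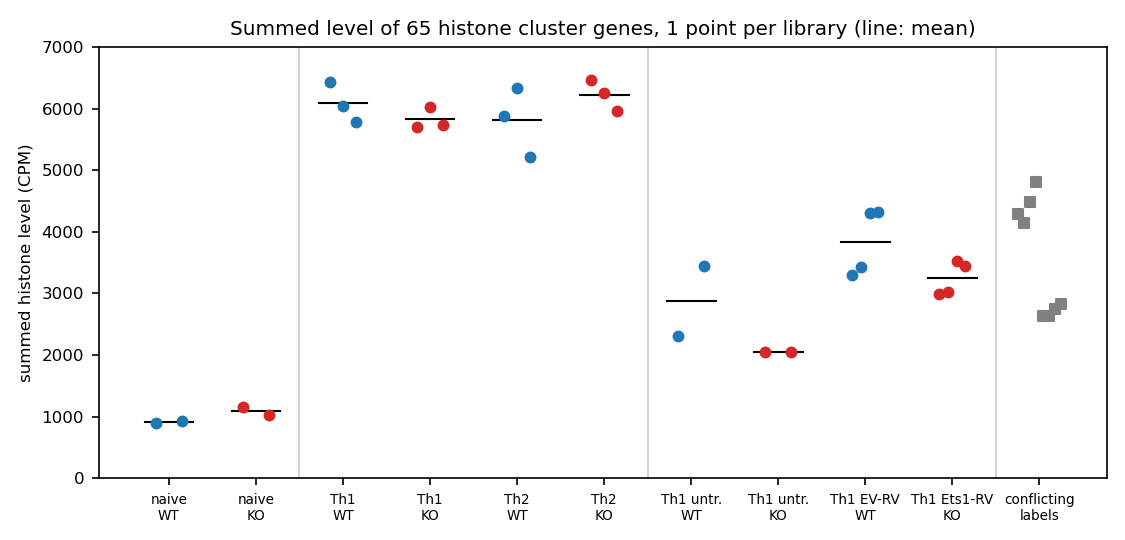
Summed level of the 65 histone cluster genes in CPM (vertical axis, from 0) in each library, by group (horizontal axis; blue WT, red KO, grey squares the 8 libraries with conflicting labels); black lines are means over libraries. Naive libraries lie at 891.1 to 1159 CPM, the earlier Th1 and Th2 libraries at 5219 to 6466 CPM, and the later Th1 libraries between these ranges.

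Total gene counts were 5069623 to 5852673 in naive libraries, 7311614 to 10256407 in the earlier Th1 and Th2 libraries and 1813288 to 6844944 in the grouped libraries of the later set. Histone members held at least 3721 counts in every grouped library. Reads that mapped to several places, which gene counts leave out, came to 0.337 to 0.374 per gene count in naive, 0.461 to 0.585 in the earlier Th1 and Th2, and 0.25 to 0.398 in the grouped later Th1 libraries; their part in the sums was not tested. T cell markers (7 genes) summed to 1136 CPM or more in every group's mean, while those of B cells (5 genes) summed to at most 18.87 CPM. The Th1 markers (Tbx21, Ifng, Cxcr3 and Il12rb2) summed to 1407 ± 233 CPM in WT Th1 and 143.3 ± 30.3 CPM in WT Th2 cells (SD, n = 3 each).

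By type, H1 genes took the largest share of the sum in every group, over 50% in naive and the earlier Th1 and Th2 cells and under 50% in the later set. They took 63.6% ± 1.11 of it in WT naive and 43.8% ± 0.67 in untransduced WT Th1 cells (SD, n = 2 each). In WT Th1 and WT Th2 cells they took 53.9% ± 0.983 and 56.6% ± 0.542 (SD, n = 3 each). Gene counts leave out reads that mapped to several places, and these shares are not scaled by gene length. The median share of unique 38-base windows was 97.85% for H1, 26.3% for H2A, 45.95% for H2B, 37.4% for H3 and 55.8% for H4. These are therefore shares of counted reads and not of all histone RNA, and the size of the difference was not tested. A single gene, Hist1h1c, which encodes the linker histone H1.2, held 49.9% ± 0.574 of the sum in WT naive and 18% ± 0.877 in WT Th1 cells. Without Hist1h1c the sum was 456.3 ± 8.87 CPM in WT naive and 4992 ± 315 CPM in WT Th1 cells. Per kilobase of annotated exon, Hist1h1c was the highest member in WT naive and WT Th1 cells, at 291.5 and 702.4 CPM per kilobase. In WT Th1 cells it was followed by Hist1h1b at 469.2, Hist1h2ak at 454.9 and Hist1h1e at 421.0 CPM per kilobase. The model of Hist1h1d spans 7425 exon bases, most of them after the stop codon, and its level of 129.9 CPM per kilobase depends on that length.

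**Figure D2:**
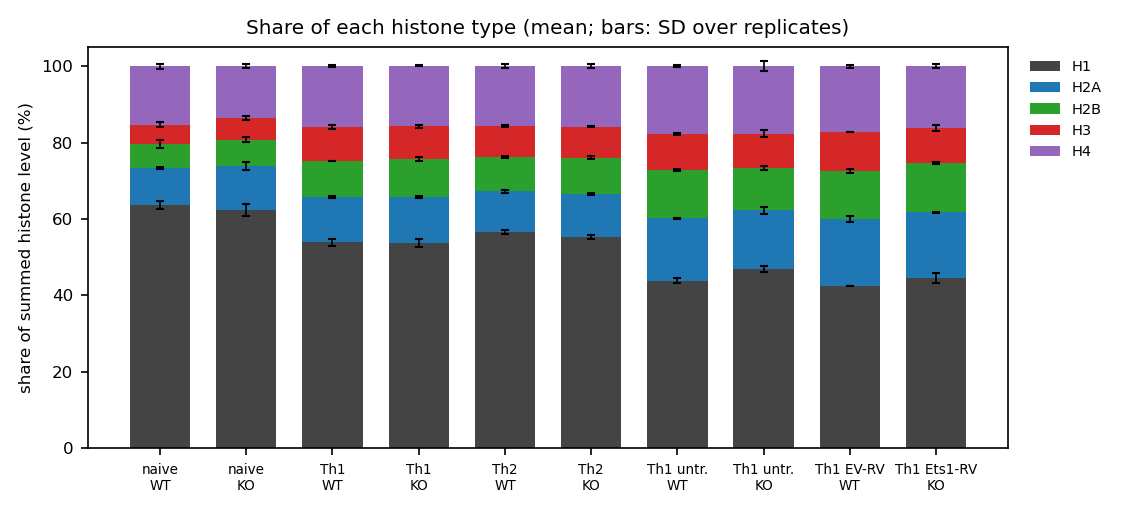
Mean share of each histone type in the summed level, in percent (vertical axis), by group (horizontal axis; untr. stands for untransduced); bars mark the SD over replicates at the top of each segment. H1 takes 63.6% in WT naive, 53.9% in WT Th1 and 43.8% in untransduced WT Th1 cells of the later set. Reads that mapped to several places are not counted, and levels are not scaled by gene length.

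From naive to helper cells of WT mice, nearly all members rose. In the edgeR test at an adjusted p below 0.05, 51 of 54 tested members were higher in WT Th1 than in WT naive cells, against 40% of all 14029 genes tested, and 2 were lower, against 36.1% (76.1% in either direction). The median log2 fold change was 3.34 for these members and 0.10 for all genes tested. In WT Th2 cells 52 of 54 were higher, against 40.2% of all genes, and 2 were lower, against 36.6%, with a median of 3.29. Both comparisons use the same naive libraries. By cluster, the summed level went from 843.7 ± 27.8 to 5823 ± 298 CPM for Hist1 and from 42.32 ± 2.26 to 214.8 ± 23.1 CPM for Hist2 between WT naive and WT Th1 cells (SD, n = 2 and 3). The sum of the 2 Hist3 genes was lower, at 10.08 and 11.63 CPM in WT naive and 3.12 to 5.07 CPM in WT Th1 libraries; Hist3h2a fell, while Hist3h2ba was at 1.88 and 2.57 CPM in naive and 3.01 to 4.39 CPM in Th1 libraries and did not pass the test. Cell state, culture and library set cannot be told apart here.

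The H1 genes showed the widest range of rises among abundant members. Hist1h1d, which encodes H1.3, was at 38.3 and 37.2 CPM in WT naive and 1001.5, 973.3 and 918.4 CPM in WT Th1 libraries. Its log2 fold change was 4.59 ± 0.10 (SE, adjusted p = 2.4e-22). Hist1h1c was at 441.1 and 468.3 CPM in WT naive and 1095.9, 1105.2 and 1086.3 CPM in WT Th1 libraries. The groups did not overlap for either gene, but the Hist1h1c change of 1.19 ± 0.07 (SE, adjusted p = 1.14e-13) was the smallest of the 51 rises. Hist1h1e, which encodes H1.4, changed by 3.64 ± 0.09, Hist1h1b, which encodes H1.5, by 4.69 ± 0.18, and Hist1h1a, which encodes H1.1, by 2.08 ± 0.23 (SE). The testis gene Hist1h1t stayed at or under 0.458 CPM in these WT libraries and was not tested.

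Among core histones, the H3 gene Hist1h3c rose most. It was at 0.684 and 1.03 CPM in WT naive and 52.0, 41.0 and 41.3 CPM in WT Th1 libraries, a log2 fold change of 5.61 ± 0.23 (SE, adjusted p = 3.04e-17). The H4 gene Hist1h4f went from 1.88 and 2.22 CPM to 93.3, 89.6 and 83.9 CPM, with a change of 5.35 ± 0.17 (SE, adjusted p = 9.92e-20). The H2B gene Hist1h2bk went from 0.684 and 1.2 CPM to 43.5, 36.1 and 33.2 CPM, with a change of 5.22 ± 0.26 (SE, adjusted p = 1.52e-15). All 3 were low in both naive libraries and high in all WT Th1 libraries. Hist1h4j followed with 4.99 ± 0.24 (SE). In WT Th2 cells Hist1h3c, Hist1h4f and Hist1h2bk also had large changes, of 5.38, 5.35 and 4.91. Hist1h4n and Hist1h2ad had 2 counts in total in WT naive cells; their fitted changes of 5.04 and 4.68 depend on the prior count. By type, 5 of 5 tested H1, 12 of 13 H2A, 11 of 13 H2B, 10 of 10 H3 and 13 of 13 H4 genes were higher, and the median was lowest for H2B (3.12) and highest for H2A (3.76).

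Other abundant core histone genes had fitted changes between 2.48 and 4.84. Among H2A genes, Hist1h2ak was at 19.2 and 23.4 CPM in WT naive and 195.9, 184.9 and 155.5 CPM in WT Th1 libraries, a log2 fold change of 2.99. Among H2B genes, Hist1h2bb was at 4.96 and 8.54 CPM in WT naive and 119.4, 112.3 and 123.8 CPM in WT Th1 libraries, a change of 4.05. Both rose in every WT Th1 library. Among H3 genes, Hist1h3e was at 13 and 19.5 CPM in WT naive and 148.8, 139.1 and 132.7 CPM in WT Th1 libraries, a change of 3.03, and Hist1h3b changed by 4.84 and Hist1h3f by 2.53. Among H4 genes, Hist1h4d was at 62.4 and 63.2 CPM in WT naive and 421.1, 376.4 and 380.9 CPM in WT Th1 libraries, a change of 2.57. No WT Th1 library overlapped a naive one for these genes. The remaining abundant members changed by 2.70 (Hist2h2ac), 4.24 (Hist1h2ab), 2.48 (Hist1h2be), 3.86 (Hist1h2bc) and 3.34 (Hist1h4h). The summed level per type was 11.5 times as high in WT Th1 as in WT naive cells for H3 and 9.92 times for H2B. It was 8.17 times as high for H2A, 7.05 times for H4 and 5.66 times for H1. These sums leave out reads that mapped to several places, and the part of those reads in this order was not tested.

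The members with the lowest fitted changes included 5 from outside the Hist1 cluster. Hist3h2a (chr11:58954685-58956830, GRCm38, plus strand) was at 9.07 and 8.2 CPM in WT naive and 0.108, 0.344 and 0.683 CPM in WT Th1 libraries. With no overlap, its level dropped by 4.50 in log2 units (SE 0.48, adjusted p = 5.96e-09). Hist2h2be, an H2B gene known to give polyadenylated RNA in cells that have stopped dividing, was at 2.91 and 5.98 CPM in WT naive and 0.861, 0.344 and 1.07 CPM in WT Th1 libraries. It fell by 2.58 (SE 0.47, adjusted p = 2.29e-05). In WT Th2 cells both genes were lower than in naive cells too, by 4.24 and 1.25, and the Hist2h2be call (adjusted p = 0.0102) was lost without 1 library, with adjusted p up to 0.34. Hist3h2ba did not pass in WT Th1 cells (0.61, adjusted p = 0.17), and Hist2h4 and Hist4h4 rose by 1.56 and 1.62. Inside the Hist1 cluster, Hist1h4i rose least after Hist1h1c, by 1.40 ± 0.25 (SE).

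**Figure D3:**
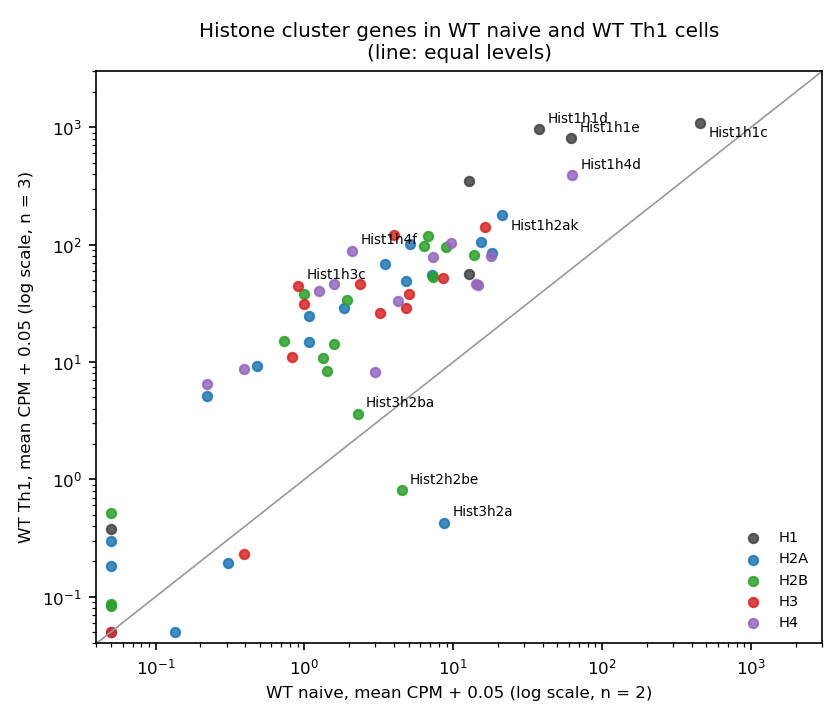
Mean level of each member in WT naive (horizontal axis, n = 2) and WT Th1 cells (vertical axis, n = 3), in CPM plus 0.05 on log scales, coloured by histone type; the line marks equal levels. Most members lie above the line, Hist1h1c lies close to it at the top right (454.7 and 1095.8 CPM), and Hist3h2a and Hist2h2be lie below it.

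Genes of DNA replication and mitosis rose in the same comparison. Of all 14029 genes tested there, 40% were higher and 36.1% lower (76.1% in either direction). Of 22 tested genes of DNA replication and S phase, 21 were higher in WT Th1 than in WT naive cells, with a median of 2.32, for example Rrm2, a subunit of ribonucleotide reductase (4.44 ± 0.29, SE). All 14 genes of the G2 and M phase list were higher, with a median of 5.05. Of 16 tested genes of the histone RNA machinery 11 were higher and 2 lower, with a median of 0.76: Ccne1, which encodes cyclin E1, changed by 2.90 ± 0.25, Slbp by 0.69 ± 0.13 and Npat by 0.59 ± 0.12 (SE). Among chaperones that hand histones to DNA, Chaf1a, the large subunit of chromatin assembly factor 1, changed by 4.23 ± 0.19, and 10 of 16 were higher and 2 lower. Of the replication-independent variants, 7 of 10 tested were higher and 2 lower, with a median of 0.67: H2afz changed by 1.43 ± 0.12, while the H3.3 genes H3f3a and H3f3b fell by 0.83 and 0.69 (SE 0.11 and 0.07). In bulk RNA, fewer cells in S phase and less histone RNA per cell cannot be told apart.

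In naive cells, the question was whether the KO allele went with a change of histone RNA. Of 40 tested members 12 were higher in KO, against 8.75% of all 11246 genes tested, and 1 was lower, against 8.92%. The median log2 fold change of the 40 was 0.37, against 0.00 for all genes tested, and 35 of 40 were above 0. The summed level was 1091 ± 96.2 CPM in KO and 911.0 ± 28.1 CPM in WT naive cells (SD, n = 2 each), a ratio of 1.2. By type, the ratio was 1.42 for H2A, 1.32 for H2B, 1.3 for H3, 1.17 for H1 and 1.08 for H4, and WT and KO libraries overlapped for H4 alone. The 2 KO libraries lay above the 2 WT libraries for 21 members, against 28.5% of all genes, and below them for 1, against 25.4%. No p is given for the sums.

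Among H1 genes 4 of 5 tested were higher. Hist1h1a was at 9.75 and 15.5 CPM in WT and 25.4 and 24.1 CPM in KO libraries. Hist1h1b was at 16.8 and 8.71 CPM in WT and 23.9 and 24.1 CPM in KO libraries. Both KO libraries lay above both WT libraries for each gene, and the WT libraries differed among themselves more than the KO ones did. The log2 fold changes were 0.96 ± 0.20 (adjusted p = 3.33e-05) for Hist1h1a and 0.90 ± 0.20 (adjusted p = 0.00013) for Hist1h1b (SE). The abundant Hist1h1c changed by 0.17 ± 0.06 and Hist1h1d by 0.35 ± 0.13 (SE), while Hist1h1e did not pass (0.10 ± 0.11, adjusted p = 0.59).

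Of the core histones, 3 of 9 tested H2A, 1 of 8 H2B, 1 of 8 H3 and 3 of 10 H4 genes were higher. Hist1h4a was at 3.94 and 4.44 CPM in WT and 12.6 and 8.31 CPM in KO libraries, a change of 1.29 ± 0.31 (SE, adjusted p = 0.000646). Hist1h2bn was at 7.19 and 7.35 CPM in WT and 18 and 16.6 CPM in KO libraries, a change of 1.24 ± 0.24 (SE, adjusted p = 1.13e-05). Hist1h3a was at 1.88 and 4.44 CPM in WT and 7.5 and 6.41 CPM in KO libraries, a change of 1.12 ± 0.38 (SE, adjusted p = 0.0221). These 3 genes did not overlap between WT and KO, and Hist1h2bn has only 12.2% unique windows. Hist1h2ai, Hist1h2ak and Hist2h2ac changed by 0.83, 0.64 and 0.52, and Hist1h4h and Hist1h4c by 0.63 and 0.48. The abundant members Hist1h2ab, Hist1h2bb, Hist1h2be, Hist1h2bc, Hist1h3e, Hist1h3b, Hist1h3f and Hist1h4f did not pass, with estimates of 0.49, 0.20, -0.23, 0.56, 0.21, 0.03, 0.08 and 0.87.

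The member that was lower was Hist1h4d, the most abundant H4 gene, at 62.4 and 63.2 CPM in WT and 55.0 and 46.8 CPM in KO libraries. It fell by 0.32 (SE 0.12, adjusted p = 0.0377). Hist1h3h had the largest estimate of all members, 1.43 ± 0.66 (SE), and did not pass (adjusted p = 0.13), at 0.342 to 2.25 CPM. On counts without strand the change of Hist1h2ak was 1.21 and no longer passed (adjusted p = 0.0738), and that of Hist2h2ac was 1.37. No member was called when either KO library was left out (3.38% to 3.78% of all genes were), and DESeq2 called 4 members, all higher, against 4.01% of all genes.

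**Figure D4:**
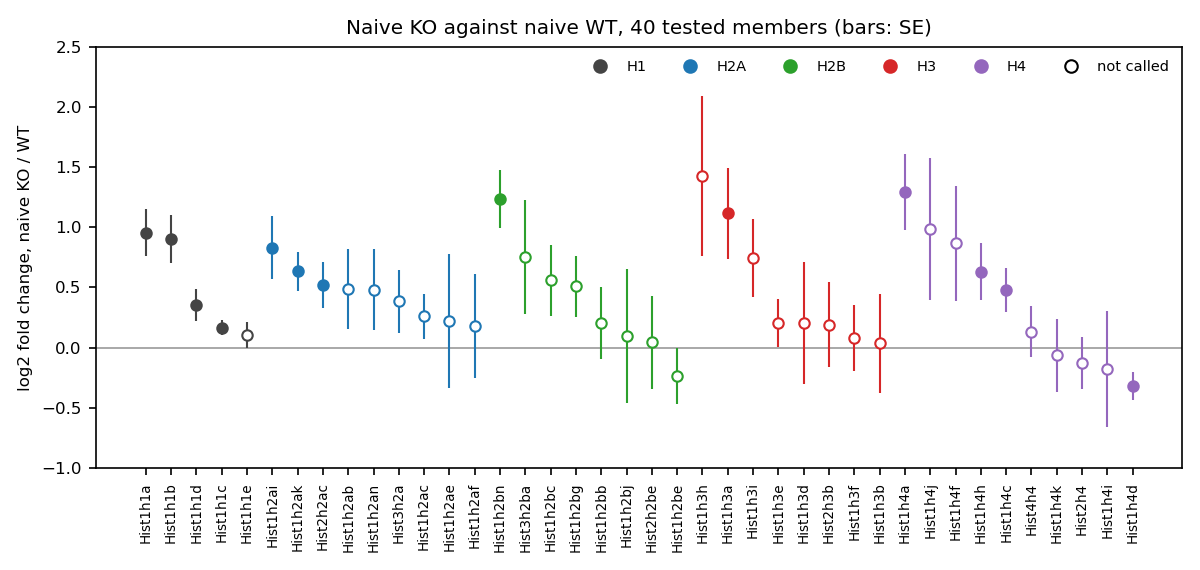
Log2 fold change of naive KO against naive WT cells (vertical axis) for the 40 tested members (horizontal axis), grouped and coloured by histone type; bars are SE, filled points were called and open points were not. 12 filled points lie above 0 and 1, Hist1h4d, lies below.

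Other genes that moved in naive cells are given beside this. Of all 11246 genes tested, 8.75% were higher in KO and 8.92% lower (17.7% in either direction). The DNA replication and S phase list had 1 of 21 tested genes higher and 1 lower, with summed levels of 679.0 ± 1.65 CPM in WT and 686.1 ± 40.2 CPM in KO cells (SD, n = 2 each). The G2 and M phase list had 0 of 11 called. Of 9 tested replication-independent variants 2 were higher, H2afj and H2afv (0.57 and 0.52), and 2 were lower. Among the latter, H1f0, the H1 variant of non-dividing cells, fell by 1.63 (SE 0.22, adjusted p = 8.56e-11). The histone RNA machinery had 0 of 15 tested genes called, and the chaperones 1 of 16 higher and 2 lower. Of 12 immediate-early and heat shock genes 10 were higher in KO naive cells, Hspa1a by 3.87, and the list summed to 9413 ± 601 CPM in KO and 5618 ± 21.3 CPM in WT. All 3 tested markers of red cells and platelets were lower in KO, with sums of 6.815 ± 1.8 CPM against 20.69 ± 0.0198 CPM, and the 2 CD8 T cell markers summed to 35.24 ± 0.37 CPM in KO against 17.35 ± 0.104 CPM in WT. Of these 2, Cd8b1 was higher in KO (178 and 199 counts against 90 and 98), and Cd8a had 2 and 3 counts in KO against 11 and 4 in WT. Of 5 myeloid markers 4 were tested, and 1 was higher and 2 lower. Itgam had 50 and 45 counts in KO against 30 and 14 in WT, and Lyz2 10 and 15 against 21 and 18. Csf1r had 13 and 6 against 27 and 28, S100a9 2 and 4 against 22 and 20, and S100a8 2 and 0 against 7 and 5. Of 7 T cell markers 5 were higher in KO. Gamma-delta T cell markers summed to 4.89 ± 0.0582 CPM in KO and 9.146 ± 3.74 CPM in WT, with no overlap. Of these 3 markers 1 was tested and was not called, and 25.4% of all genes tested also lay lower without overlap. Mitochondrial genes took 14.3% and 16.7% of counts in the KO and 13% and 12.6% in the WT libraries. B cell markers, none of them tested, summed to 4.101 ± 1.06 CPM in KO and 8.718 ± 2.89 CPM in WT. The part of these in the histone result was not tested.

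The KO effect in naive cells was compared with that in Th1 cells by an interaction term over 16 libraries. It was lower in Th1 cells for 7 of 54 members tested, against 1.45% of all genes, and higher for 0, against 1.6%. These were Hist1h4a, Hist1h3a, Hist1h1a, Hist1h2bn, Hist1h1b, Hist1h2ai and Hist1h2ak, all of them among the members called in naive cells, with which the test shares its naive libraries. The difference was -1.22 ± 0.32 (SE, adjusted p = 0.0339) for Hist1h1a and -1.14 ± 0.27 (SE, adjusted p = 0.0183) for Hist1h2bn. Without the KO naive library of T number 1 no member was called.

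In Th1 and Th2 cells themselves no member passed the threshold between KO and WT. The fitted change was below 0 for 37 of 53 members in Th1 cells, with a median of -0.07 against 0.003 for all genes. In Th2 cells it was above 0 for 43 of 53, with a median of 0.11 against -0.0031 for all genes. In Th1 cells edgeR called 0 of 53 tested members, against 3.66% of all 12616 genes (2.16% higher and 1.51% lower), 1 member had an unadjusted p below 0.05 (16.1% of all genes did) and DESeq2 called 0. The summed level was 5825 ± 177 CPM in KO and 6087 ± 319 CPM in WT Th1 cells (SD, n = 3 each), a ratio of 0.957. KO libraries lay wholly above WT for 1 member, against 10.9% of all genes, and below for 3, against 8.74%. In Th2 cells edgeR called 0 of 53, against 0.325% of all genes, 7 members had an unadjusted p below 0.05 (9.37% of all genes did) and DESeq2 called 0. The sum was 6226 ± 256 CPM in KO and 5808 ± 558 CPM in WT Th2 cells (SD, n = 3 each). By type, KO Th2 libraries lay above WT ones for H2A, at 683.9 to 712.1 against 523.8 to 674.4 CPM. They did so for H2B too, at 579.7 to 590.3 against 485.6 to 568.5 CPM. WT and KO overlapped for H1, H3 and H4 in Th2 cells and for every type in Th1 cells. KO libraries lay wholly above WT for 8 members, against 10.1% of all genes, and below for 1, against 4.98%. The fitted changes farthest from 0 were -0.34 ± 0.14 for Hist1h3g in Th1 cells and -0.62 ± 0.44 for Hist2h2be in Th2 cells (SE), neither past the test. Hist1h1c changed by -0.04 in Th1 and 0.04 in Th2 cells, and Hist1h1d by -0.07 and 0.00. The interaction of genotype and fate called 0 of 53 members and 0% of all genes, and DESeq2 called 0 members. In its edgeR test 6 members had an unadjusted p below 0.05 (11.3%, against 9.72% of all genes). Its estimate was below 0 for 45 of 53 members, with a median of -0.13 against 0.0088 for all genes.

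Between fates, some members were higher in WT Th1 than in WT Th2 cells although the sums overlapped. In WT cells 9 of 53 members were higher in Th1, against 13.7% of all genes tested, and 1 was lower, against 15.8%, so the shares were near the background or under it. Hist1h1a was at 54.8, 50.7 and 63.7 CPM in WT Th1 and 23.5, 47.6 and 26.2 CPM in WT Th2 libraries, a change of 0.73 ± 0.18 (SE, adjusted p = 0.00397). Hist1h4b was at 54.0, 48.5 and 36.9 CPM in WT Th1 and 27.8, 33.4 and 25.3 CPM in WT Th2 libraries, a change of 0.62 ± 0.14 (SE, adjusted p = 0.00178). WT Th1 was above WT Th2 in every library for both genes, and 1 Th2 library came close for Hist1h1a. Hist1h3a, Hist1h2bj and Hist1h2an followed with 0.56, 0.39 and 0.38. Hist2h2be was lower in WT Th1 by 1.34 (SE 0.47, adjusted p = 0.0365), at 0.344 to 1.07 against 1.63 to 2.05 CPM, and lost its call in 5 of 6 fits that left out 1 library. Without the WT Th1 library of T number 1, 3 members were called higher in place of 9, against 9.61% of all genes, and none lower. Of 22 replication genes 9 were higher in WT Th1 and 0 lower, Pcna, the sliding clamp of DNA polymerase, by 0.58 ± 0.09 (SE).

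In KO cells the members called were other ones: 0 of 53 were higher in Th1, against 8.01% of all genes, and 4 were lower, against 9.5%. Hist1h2be was at 70.5, 81.0 and 81.2 CPM in KO Th1 and 100.4, 96.2 and 95.3 CPM in KO Th2 libraries, a change of -0.36 ± 0.08 (SE, adjusted p = 0.00466), with no overlap. Hist1h1c, Hist1h1e and Hist1h4d were lower by 0.24, 0.23 and 0.20. None of the 4 was among the 10 called in WT cells, but the difference between genotypes was not past the threshold for any member.

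In the later Th1 set, libraries of the same B number were summed in each transduced group, so n = 2 in every group. Untransduced WT cells held 2315 CPM of histone RNA at B number 1 and 3448 CPM at B number 2, and untransduced KO cells held 2054 and 2052 CPM. KO lay below WT at both numbers, but WT differed between its numbers by more than KO from the lower WT library. All 52 tested members had a fitted change below 0, with a median of -0.63 against -0.01 for all genes, and 25 had an unadjusted p below 0.05, against 14.1% of all genes. Both KO libraries lay below both WT libraries for 35 members, against 22.9% of all genes, and above for 0, against 16.6%. None was called by edgeR, against 1.24% of all 11072 genes, nor by DESeq2. Without a filter on low counts 21 of 62 members were called lower, against 1.11% of all genes in that fit. Without the WT library of B number 1, 12 of 53 were called lower, against 0.494% of all genes; the lone WT library is then assumed to vary like the other groups.

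The H1 gene Hist1h1b had the smallest p. It was at 120.8 and 169.9 CPM in untransduced WT and 68.9 and 88.8 CPM in untransduced KO libraries, a change of -0.89 ± 0.26 (SE, adjusted p = 0.109), with no overlap. The H4 gene Hist1h4f was at 34.7 and 53.8 CPM in WT and 23.1 and 22.6 CPM in KO libraries, a change of -0.96 ± 0.30 (SE, adjusted p = 0.138). Hist1h1c, in contrast, overlapped, at 361.4 and 493.8 CPM in WT and 385.8 and 404.2 CPM in KO libraries. Some cell cycle genes were called lower in the same libraries, where 0.632% of all genes tested were. Of 22 replication genes, 4 were called lower, Rrm2 by 1.47 (SE 0.15), and the list median was -0.51. Of 14 G2 and M phase genes, 5 were called lower, and the list median was -0.91. Among them Ccna2, which encodes cyclin A2, fell by 1.12 (SE 0.17). The type sums in KO were lower than in WT at both numbers, with KO to WT ratios of 0.625 for H2B, 0.671 for H2A, 0.681 for H3, 0.698 for H4 and 0.766 for H1. The Th1 markers summed to 971.6 ± 66.5 CPM in KO and 1804 ± 191 CPM in WT (SD, n = 2 each), but only 1 of the 4 was called lower. Ifng had 1077 and 769 counts in KO against 4761 and 7417 in WT, and Il12rb2 1959 and 934 against 2302 and 3183. Tbx21 had 349 and 137 against 646 and 813, and Cxcr3 11 and 7 against 10 and 12. Total gene counts of these libraries were 3673270 and 1813288 in KO and 3981403 and 6844944 in WT. The replication list summed to 1194 ± 77.4 CPM in KO and 1634 ± 35.3 CPM in WT. The part of these in the histone levels was not tested.

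With virus, the KO cells given Ets1-RV held 3004 and 3492 CPM of histone RNA at B numbers 1 and 2, and the WT cells given EV-RV held 3363 and 4316 CPM. KO was below WT at each number and the groups overlapped across numbers. edgeR called 0 of 52 members, against 0.56% of all genes, 4 had an unadjusted p below 0.05 (7.69%, against 9.61% of all genes) and DESeq2 called 0; the median was -0.31 and 47 of 52 were below 0. For 23 members both KO values lay below both WT values, against 14.9% of all genes, and for 0 above, against 17.8%. Hist1h1a was at 38.2 and 48.7 CPM in WT and 28.4 and 29.8 CPM in KO cells, a change of -0.58 ± 0.21 (SE, adjusted p = 0.352). Genotype and the virus carried change together in this comparison and cannot be told apart.

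WT cells with EV-RV held more histone RNA than untransduced WT cells at each B number, 3363 against 2315 CPM and 4316 against 3448 CPM. The groups overlapped across numbers, and the ratio of means was 1.33. Of 52 tested members 46 were above 0, with a median of 0.37. None was called, against 0% of all genes; 8 had an unadjusted p below 0.05 (15.4%, against 2.42% of all genes) and DESeq2 called 0. For 24 members both EV-RV values lay above both untransduced values, against 12.7% of all genes, and for 0 below, against 8.75%. The 2 comparisons above and this one share groups, so their values are not independent.

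The B numbers differed in another way. In both WT groups the histone sum was higher at B number 2, while the G2 and M phase list was lower there: 1166 CPM at number 1 and 731.5 CPM at number 2 in untransduced WT, and 1298 and 770.3 CPM in WT with EV-RV. The replication list differed less, at 1659 and 1609 CPM in untransduced WT and 1835 and 1643 CPM with EV-RV. In KO cells with Ets1-RV all 3 sums were higher at B number 2. With 1 value for each number and group, no test was made.

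**Figure D5:**
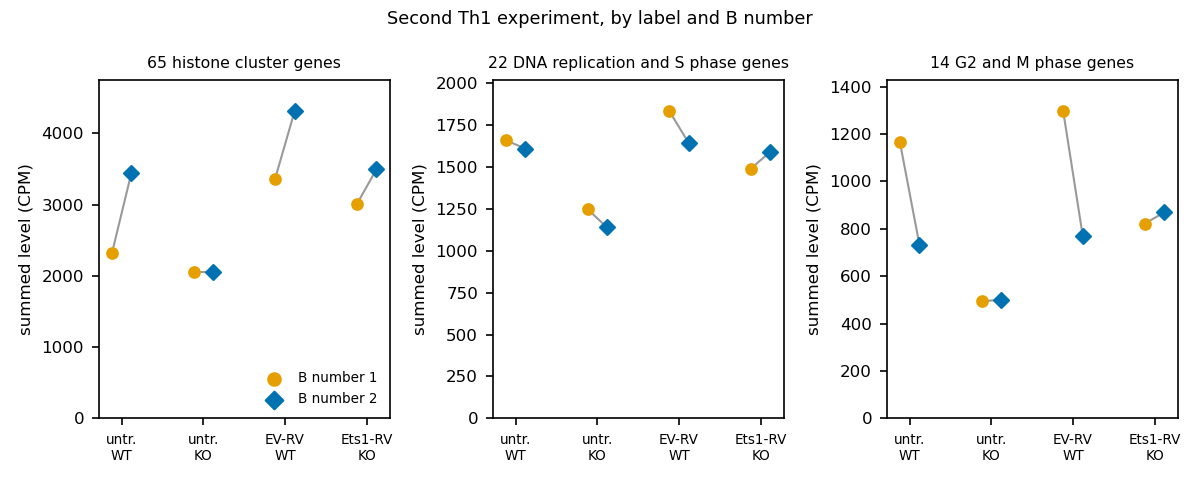
Summed level in CPM (vertical axes, from 0) of the 65 histone cluster genes, of 22 DNA replication and S phase genes and of 14 G2 and M phase genes in the later Th1 set, by group (horizontal axes), at B number 1 (circles) and 2 (diamonds). In both WT groups the histone sum is higher at B number 2 while the G2 and M phase sum is lower.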

How the data were processed

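The 36 RNA libraries came from the SMARTer Stranded Total RNA Pico v2 kit, and paired reads of 38 or 61 bases were taken, per the labels' protocols. The authors deposited raw read counts per gene from STAR 2.5.0a on GRCm38, per the submitters' processing notes. The column of the strand with 93.3% to 95.2% of stranded counts was used. The 4 summary lines, 63.6% to 76.0% of what was tabulated, stayed out of library sizes. Of 45706 identifiers, 45143 matched GENCODE M21. Levels are raw CPM; fold changes are from edgeR 4.0.16 (R 4.3.3), quasi-likelihood test, TMM, filterByExpr, Benjamini-Hochberg adjustment over all genes of the fit, threshold 0.05. The SE printed is the absolute log2 fold change divided by the square root of the F statistic of that test. There were 4 fits: naive, the earlier Th1 and Th2 set, the later Th1 set with libraries of a B number summed, and naive with the earlier set. The named genes were the 3 members of highest mean CPM in each type and up to 5 called members per direction with the largest change; of other lists, the 3 highest genes and up to 3 called per direction, and a few more were chosen after their values were seen. Members and lists were chosen with earlier results of these data known. Scripts were tested on simulated counts. DESeq2 1.42.0, other scalings, no filter, unstranded counts, a replicate block, sums without the highest members or over mostly unique members, and leaving out each replicate were tried. The 8 libraries whose title and transduction label name different viruses entered no comparison. No pair of libraries of a group was identical. Whether same-numbered libraries pair was checked by correlation, and they were not taken as pairs.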

Additional observations from a re-analysis of the deposited data

Results flagged for a closer look

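The KO effect differed between Th1 and naive cells for 7 of 54 members tested by the interaction test of edgeR. All 7 were lower, against 1.45% of all genes (3.05% in either direction). The differences, on the log2 scale as the Th1 effect minus the naive effect, were -1.44 for Hist1h4a, -1.35 for Hist1h3a, -1.22 for Hist1h1a, -1.14 for Hist1h2bn, -1.01 for Hist1h1b, -0.85 for Hist1h2ai and -0.72 for Hist1h2ak. In the naive comparison, whose libraries this test shares, these 7 were called higher in KO, and in Th1 cells none passed. The 8 libraries with conflicting labels, which no comparison used, reached a summed histone level of 4812 CPM, above the highest WT library with EV-RV at 4324 CPM; that difference was not tested. Only the 2 transduced groups, with 4 libraries each, were large enough to look for a library far from the others. None was found in 42 checks of sums and of the most abundant members, and groups of 2 or 3 libraries were not checked. Each of the 2 groups holds 2 libraries of each B number. Their sums lay close together, such as 3296.5 and 3432.7 CPM against 4305.0 and 4324.0 CPM with EV-RV. These checks could therefore hardly flag 1 library.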

How the results depend on the processing

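In naive cells, where 13 members were called, 7 were called with no filter and 4 by DESeq2, and 0 to 6 when 1 replicate was left out. Of all genes tested in naive cells, 17.7% were called, 7.06% with no filter and 7.69% by DESeq2. For WT Th1 against WT Th2, 10 members and 29.5% of all genes were called. Leaving out a replicate there gave 3 to 14 members and 21.7% to 28.7% of all genes. The interaction of genotype with Th1 against naive called 7 members, and 0 to 6 with a replicate left out. In untransduced Th1 cells, where 0 members were called, 21 were called with no filter and 0 to 12 with a replicate left out, and with no filter 1 member was called for WT with EV-RV against untransduced WT and 1 for the interaction of genotype with Th1 against Th2. Of all genes, the interaction of genotype with Th1 against naive called 3.05%, and the untransduced comparison 1.24%, or 1.78% with no filter. With no filter, WT with EV-RV against untransduced WT called 0.0726% of all genes and the interaction with Th1 against Th2 0.844%. The causes were not tested. With the replicate number as a block, 2 members were called in untransduced Th1 cells, against 1.91% of all genes. That setting called 11 in naive cells, against 16.2%, and 12 for WT Th1 against WT Th2, against 30.1%. The block changed no call count in the other comparisons, and fits that join naive and cultured cells had no block. The labels do not say that the numbers pair libraries: deviations of same-numbered libraries correlated at -0.05 in naive cells, -0.11 to 0.24 in the earlier set and 0.04 to 0.33 in the later set. The log2 ratio of sums in naive KO against WT was 0.26, and 0.41 without the highest member of each type. For WT Th1 against naive it was 2.74, and 2.66 with TMM scaling, 3.58 without the highest members and 2.57 over members with mostly unique windows, an alternative chosen after seeing the data; for WT Th2 against naive it was 2.67 and 3.47 without the highest members. No named member changed sign. The untransduced KO library of B number 2 held 1813288 gene counts, the fewest of any grouped library. The part of its depth in the untransduced comparison was not tested.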

Other observations

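Summed histone levels of the 8 libraries with conflicting labels were as follows. The 4 libraries with a KO and EV-RV title held 4295, 4144, 4488 and 4812 CPM, with H1 genes at 1785 to 2064 CPM. The 4 libraries with a WT and Ets1-RV title held 2628, 2629, 2746 and 2836 CPM, with H1 genes at 1176 to 1288 CPM. The ranges do not overlap. Values at the targeted locus went against the strain in these titles. The noncoding gene Gm27162, at 0 counts in every grouped KO library and 8 to 53 in grouped WT libraries, had 5 to 17 counts in the libraries with a KO title and 0 in those with a WT title. Ets1 was at 565.1 to 631.9 CPM in the libraries with a KO title and 189 to 269.4 CPM in those with a WT title, against 214 and 238.8 CPM in untransduced KO cells. The DNA replication and S phase list was at 1572 to 1729 CPM in the former and 1352 to 1463 CPM in the latter libraries.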
